A study of Mus musculus with 24 samples.

Results

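The first day of injury was followed in muscle stem cells of the L2A-Pax7CreER genotype, called KO here, by comparing 4 libraries taken 1 day after injury with 4 libraries from uninjured muscle. These 8 libraries were chosen by their labels, out of 24 in the series. Of the 17111 genes of the table, 12830 reached a value of 1 or more in 4 or more of the 8 libraries and were tested, and 4281 did not. The series used bulk RNA sequencing of mouse muscle stem cells of the genotypes L2A-WT and L2A-Pax7CreER, either uninjured (day 0) or 1 or 4 days post injury (dpi). Injured muscle had been injected with 50 µL of 10 µM cardiotoxin, a snake toxin that breaks down muscle fibres. The KO label names CreER, a tamoxifen-inducible recombinase, driven by Pax7, and its target is Lamp2a (L2A), a splice form of Lamp2. The labels give no group with Pax7CreER and intact L2A, so effects of the recombinase and of the loss of L2A cannot be told apart when KO is set beside WT. KO at day 0 (uninjured) and KO at day 1 (1 dpi) both carry the driver and the targeted allele, so the genotype does not differ within the KO comparison. Whether recombination had gone equally far at both days was not tested. The WT libraries used for the difference between genotypes are 4 uninjured and 4 at 1 dpi. All libraries carry batch label 1, and no age, sex or tamoxifen schedule was used here. The labels do not say whether libraries came from separate animals, so the spread behind the p-values is that between libraries and may be technical.

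Muscle stem cells lie quiescent between the muscle fibre and its basal lamina, and most of them express the transcription factor Pax7. After damage they enlarge, raise Myod1 protein, remodel their metabolism and enter the cell cycle before they divide and fuse into fibres. LAMP2A is the lysosomal receptor of chaperone-mediated autophagy, in which the chaperone HSC70 (gene Hspa8) brings single proteins with a targeting motif to the lysosome.

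Total counts were 11.58 to 16.88 M per KO library at day 0 and 20.23 to 22.47 M at day 1. Day 0 libraries resembled each other less (pairwise correlation of log2 values 0.828 to 0.857, against 0.959 to 0.968 at day 1), and the median gene had an SD of 0.655 log2 units at day 0 and 0.320 at day 1. Mitochondrially encoded genes took 7.27 to 13.3% of the values at day 0 and 3.77 to 6.13% at day 1. The most abundant gene in each library took 5.97 to 7.34% at day 0 and 0.920 to 1.23% at day 1. Their part in the differences below was not tested.

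Muscle stem cell markers led in both groups. All 13 of them passed the filter, and their summed value was 3239 to 3638 at day 0 and 5817 to 7760.2 at day 1. Macrophage markers summed to only 27.1 to 64.5 and 20 to 28.8 over 22 genes, 17 of which were below the filter, among them Adgre1, Csf1r and Ptprc. Of the 5 tested, limma called 1 higher and 1 lower, and edgeR 0 and 1. Lyz2 rose from a mean of 1.61 to 6.998 (limma, adjusted p = 0.0195), and Cd68 fell from 29.12 to 4.439 (limma, adjusted p = 0.000566). Of 2 neutrophil markers tested, 0 were called. S100a9, a neutrophil marker below the filter, held 2 counts over the day 0 libraries and 102 over the day 1 libraries. Endothelial markers summed to 105 to 219.7 at day 0 and 18 to 24.9 at day 1. Tek, which muscle stem cells also express, made up most of that sum. Of the 5 tested, 4 passed the test as lower, and Pecam1 among them passed the filter only through day 0. Over all genes tested, 22.3% were lower and 28.8% higher, and these shares also stand beside the marker counts that follow. Schwann and glial markers, led by Pmp22, summed to 514 to 668 and 191 to 255. Markers of fibro-adipogenic progenitors divided: 6 of the 14 tested fell, 2 rose, and their sums overlapped between days (2251 to 2706 and 1792 to 2547). Among marker genes named here after their values were seen, Dcn fell from a mean of 825 to 82.7, Col3a1 from 777 to 309 and Mfap5 from 56.3 to 3.65, while Gsn rose from 574 to 1429. Of 10 smooth muscle and pericyte markers tested, 6 fell and 2 rose, and Cspg4, which fell, passed the filter only through day 0. Rgs5 fell from a mean of 19.2 to 0.888, Abcc9 from 14.4 to 0.884 and Mcam from 89.7 to 13.8. Kcnj8, of the same list, rose from 0.332 to 4.18, and Acta2 and Pdgfrb did not pass the test. The sum of this list was nevertheless higher at day 1 (819 to 1275 against 1449.6 to 1962), with Des, which muscle cells also express, at a mean of 299 and 1169. The sums of mature fibre markers overlapped (50.1 to 90.4 and 47.7 to 87.9). In bulk samples, fewer cells of a type and less RNA per cell cannot be told apart.

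**Figure D1:**
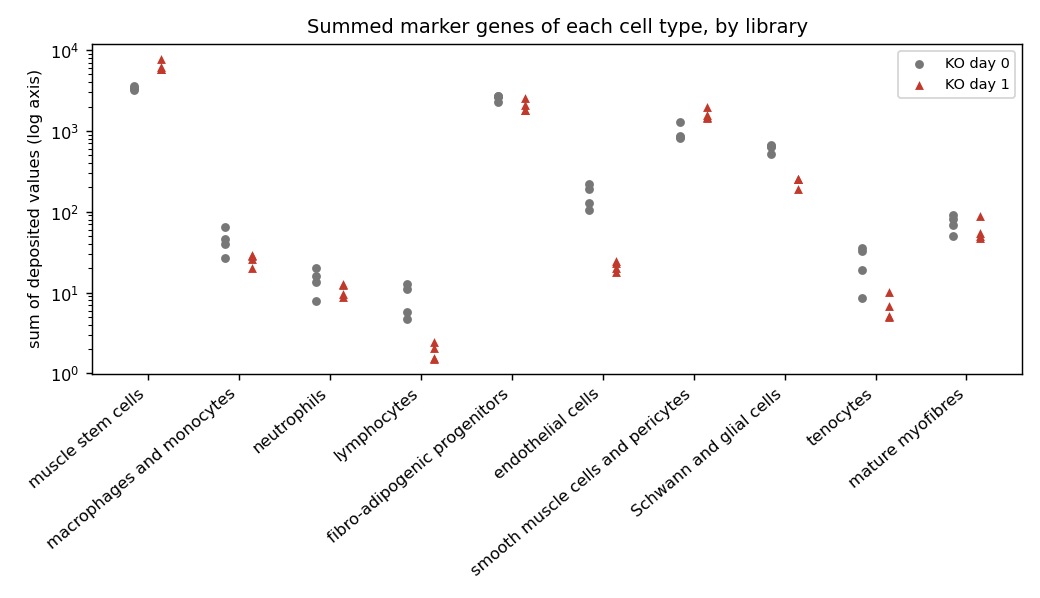
Sum of the deposited values of each cell type's marker genes in each KO library (vertical log axis, arbitrary normalised units), grey circles for the 4 libraries at day 0 and red triangles for the 4 at day 1. Stem cell markers were the highest list in every library, and the endothelial sum was 18 to 24.9 at day 1.

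Lamp2, the targeted gene, was present in every KO library. Its deposited values, which are linear, normalised for library size and hold an offset of 0.5 counts, were 589, 602, 529 and 608 at day 0 and 457, 393, 421 and 290.3 at day 1. Every library of day 1 lay below every library of day 0. The log2 change was -0.59 ± 0.15 (standard error; limma, adjusted p = 0.00634), and without a mean-variance trend the adjusted p was 0.0537. A gene-level value sums the splice forms, so it does not check the loss of L2A. Hspa8, the chaperone that works with LAMP2A, had values of 5222, 5112, 5756 and 4227 at day 0 and 9702, 8168, 8757 and 8152 at day 1, without overlap. It rose by 0.78 ± 0.12 log2 units (limma, adjusted p = 0.000265).

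Within KO, 6545 of 12830 genes (51.0%) differed between day 1 and day 0 (limma, Benjamini-Hochberg adjusted p under 0.05). Of all genes tested, 3689 (28.8%) were higher and 2856 (22.3%) lower at day 1, and these shares are the background for every count below. The 4 libraries of one day all lay above the 4 of the other for 6026 genes (47.0%), 3380 higher (26.3%) and 2646 lower (20.6%). Changes of at least 1 log2 unit passed the test in 3229 genes upward and 2426 downward, and changes of at least 3 units in 546 and 229. The median change of all genes tested was 0.20 log2 units as deposited and scaled, -0.02 after quantile normalization and -0.07 with edgeR and with DESeq2. The balance of calls moved with that scaling: 3091 higher (24.1%) and 3409 lower (26.6%) after quantile normalization, 2552 (19.9%) and 2817 (22%) with edgeR, and 2965 (23.1%) and 3280 (25.6%) with DESeq2. Under all 4 fits together, 2429 genes were higher and 2631 lower in the same direction. List medians below are therefore to be read against 0.20.

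**Figure D2:**
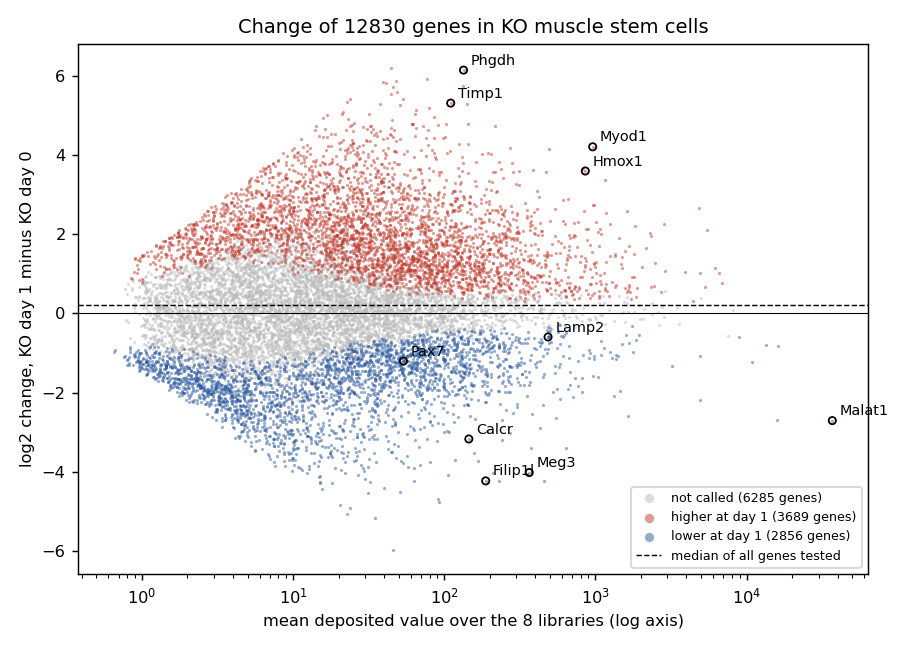
Log2 change from KO day 0 to KO day 1 (vertical axis) against the mean deposited value over the 8 libraries (horizontal log axis) for the 12830 genes tested, red for the 3689 called higher, blue for the 2856 called lower, grey for the rest; the dashed line is the median of all genes, 0.20. Myod1 and Hmox1 stand high among abundant genes, and Malat1 is the most abundant gene that fell.

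Among the myogenic transcription factors, the determination genes Myod1 and Myf5 rose while Pax7 and Pax3 fell. Of 22 myogenic transcription factors, 5 rose and 10 fell, with a median change of -0.59 (3 and 10 with edgeR). Myod1, which commits cells to the muscle lineage, had values of 139, 120.0, 90.1 and 57.7 at day 0 and 1591, 1907, 2191 and 1583 at day 1. The lowest library of day 1 lay far above the highest of day 0, and the change was 4.21 ± 0.24 log2 units (adjusted p = 6.34e-07). Myf5, the related factor, had values of 39.3, 38.5, 31.3 and 58.6 at day 0 and 109, 149.6, 118 and 124 at day 1, again without overlap, and rose by 1.58 ± 0.22 (adjusted p = 0.00018). Pax7, the stem cell factor, had values of 83.4, 74.4, 85.3 and 58.4 at day 0 and 28.5, 30.2, 37 and 32.4 at day 1. All day 1 libraries were below all day 0 libraries, and Pax7 fell by 1.20 ± 0.21 (adjusted p = 0.000813). Pax3, its paralogue, fell from 97.1, 93.6, 66.2 and 54.5 at day 0 to 6.53, 10.6, 4.56 and 4.46 at day 1, a change of -3.42 ± 0.35 (adjusted p = 2.32e-05). Myog, which drives terminal differentiation, was erratic: its values were 0.0332, 65.1, 17.9 and 1.51 at day 0 and 11, 5.16, 0.0261 and 2.01 at day 1, where values under 0.05 stand for no read. The groups overlapped, the change of -0.96 ± 1.21 did not pass the test (adjusted p = 0.538), and without library 2 of day 0 its sign turned (0.09).

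**Figure D3:**
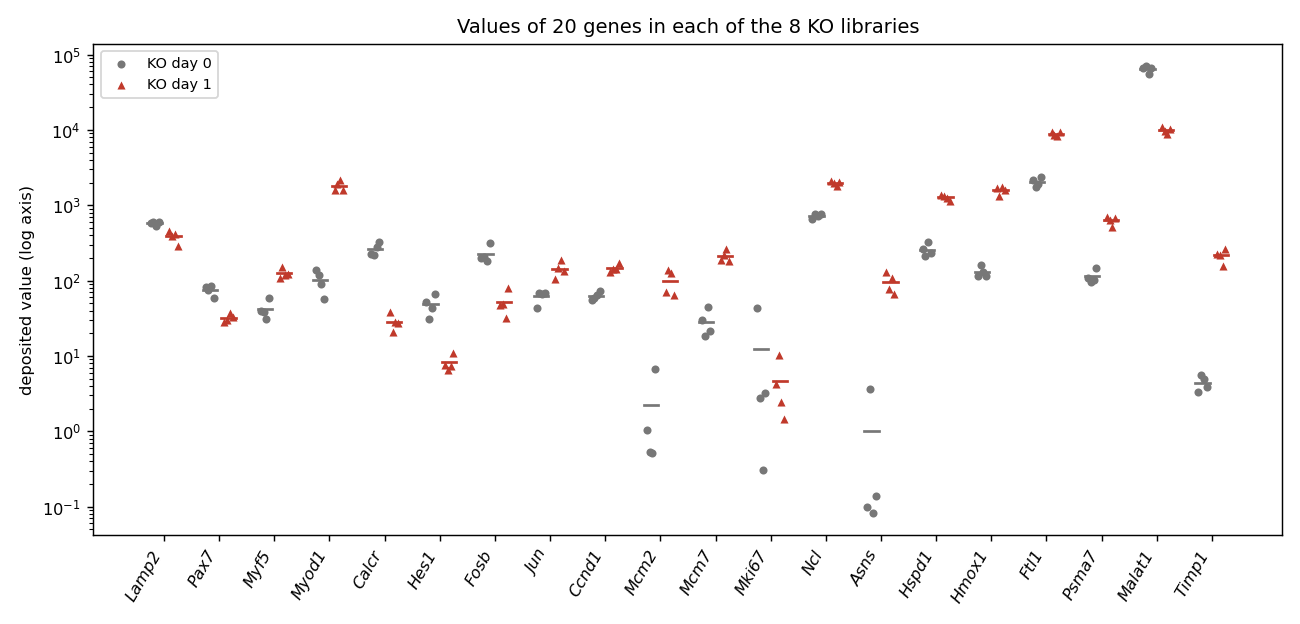
Deposited values (vertical log axis) of 20 genes in each of the 8 KO libraries, grey circles for day 0 and red triangles for day 1, with short lines at the group means. Groups are apart for 19 of the 20 genes, against 47.0% of all genes tested, and Mki67 overlaps, with 1 day 0 library at 43.4. The 20 were picked from genes named partly by smallest p or lack of overlap, so the choice largely set this count. Myog, Vcam1, Met, Myc and Cryab, which overlap, are not drawn.

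Surface and niche genes split. Among 30 markers of quiescent or sorted stem cells, 7 rose and 13 fell. Their median of 0.13 turned negative under quantile normalization (-0.20), edgeR (-0.08), DESeq2 (-0.07) and without library 1 of day 0 (-0.04). Calcr, the calcitonin receptor that holds stem cells in their niche, had values of 224, 218, 279.8 and 327 at day 0 and 38.9, 20.6, 27.9 and 27 at day 1 and fell by 3.17 ± 0.23 log2 units (adjusted p = 2.27e-06). Chodl, a lectin-like surface protein, had values of 881, 797, 992 and 843 at day 0 and 265, 215, 234 and 222 at day 1 and changed by -1.90 ± 0.12 (adjusted p = 1.21e-06). Neither gene had overlapping groups. Dmd, which encodes dystrophin, went from 623, 528, 453 and 438 at day 0 to 105, 101, 94.8 and 91.7 at day 1, a change of -2.35 ± 0.15 (adjusted p = 1.02e-06). Tek, the angiopoietin receptor, had values of 157, 166, 68.1 and 106 at day 0 and 19.2, 12, 11.3 and 17.5 at day 1 and changed by -2.91 ± 0.32 (adjusted p = 3.69e-05). Tek is also counted among the endothelial markers above, whose part in its fall was not tested.

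Other members of that list rose or did not pass the test. Gpx3, a secreted glutathione peroxidase, had values of 1289.6, 1493, 1402 and 1109 at day 0 and 8174, 8413, 8313 and 8333 at day 1; its change was 2.66 ± 0.11 (adjusted p = 1.01e-07), and the day 1 libraries lay within a narrow band. Cdh15, the M-cadherin of stem cells and myoblasts, rose from 24.2, 25.9, 41.8 and 26.5 at day 0 to 119, 134, 258 and 107 at day 1, a change of 2.29 ± 0.30 (adjusted p = 0.000111). Vcam1, the adhesion molecule used to sort stem cells, had values of 616, 669, 583 and 903 at day 0 and 1079, 1040.1, 1202 and 862 at day 1; 1 day 0 library exceeded 1 day 1 library. Its change of 0.60 ± 0.16 passed the test (adjusted p = 0.00768) but not without the variance trend or after quantile normalization. Cd34 (change 0.42 ± 0.18, adjusted p = 0.0741) and Spry1, which restrains receptor tyrosine kinases (change 0.17 ± 0.35, adjusted p = 0.719), did not pass, and the sign of Spry1 turned under quantile normalization, edgeR and DESeq2, and without library 1 or 4 of day 0. Cd34 did pass with library weights (adjusted p = 0.0401) and without library 2 of day 0 (adjusted p = 0.0303).

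In the Notch pathway, which keeps stem cells quiescent, 8 of 26 genes (30.8%) fell and 4 (15.4%) rose, with a median of -0.45. Of all genes tested, 22.3% fell and 28.8% rose. The higher count was 2 with edgeR. The count of lower genes was 5 without library 1 of day 0, 4 without library 1 of day 1 and 3 without library 2 of day 1. Hes1, a direct Notch target, had values of 51.5, 31.2, 43.7 and 66.7 at day 0 and 7.69, 6.6, 7.43 and 11.1 at day 1. No day 1 library reached the lowest of day 0, and Hes1 fell by 2.39 ± 0.34 (adjusted p = 0.00019). Mib1, the ligase that activates Notch ligands, went from 205, 148, 134 and 136 at day 0 to 51.6, 43.2, 33.3 and 41.8 at day 1 (change -1.84 ± 0.21, adjusted p = 4.41e-05). Notch3, a receptor that pericytes also express, changed by -0.93 ± 0.23 (adjusted p = 0.00549). It is counted among the pericyte markers above, whose part in its fall was not tested.

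Receptors of growth factors changed in both directions, and most did not pass. Of 25 tested, 3 (12%) rose and 7 (28%) fell (median -0.13), against 28.8% and 22.3% of all genes tested. Igf1r, the receptor of insulin-like growth factor, had values of 117, 103, 107 and 122 at day 0 and 30.2, 25.8, 22.4 and 26.6 at day 1. The fall of 2.06 ± 0.19 left no overlap (adjusted p = 1.21e-05). Fgfr1 had values of 502, 509, 564 and 546 at day 0 and 299, 321, 352 and 305 at day 1 and changed by -0.73 ± 0.11 (adjusted p = 0.000344). Plaur, the urokinase receptor, rose from 129.6, 118, 98.2 and 87.7 at day 0 to 622, 538, 594 and 615 at day 1, a change of 2.45 ± 0.15 (adjusted p = 9.05e-07). Tnfrsf1a, a receptor of tumour necrosis factor, rose by 1.51 ± 0.24 (adjusted p = 0.000455). Met, the receptor of hepatocyte growth factor, had overlapping groups and a change of 0.46 ± 0.19 that did not pass (adjusted p = 0.0681). Met did pass without library 2 of day 1 (adjusted p = 0.0338).

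Immediate early genes, transcribed within minutes of a stimulus, were mostly lower at day 1: 15 of 28 fell and 6 rose, with a median of -0.70. Only 3 rose after quantile normalization or without the variance trend. Fosb, a partner in the AP-1 transcription factor, had values of 198, 206, 182 and 314 at day 0 and 46.8, 48.9, 32.1 and 79.9 at day 1 and changed by -2.14 ± 0.27 (adjusted p = 0.000104). Nr4a3, an orphan nuclear receptor, had values of 187, 213, 158 and 202 at day 0 and 36.6, 37.4, 27.1 and 52.7 at day 1, a change of -2.30 ± 0.22 (adjusted p = 1.4e-05). Both were lower in every day 1 library. Fosl2 (change -1.75 ± 0.15, adjusted p = 8.66e-06), Fos (change -0.89 ± 0.24, adjusted p = 0.00877) and Egr1 (change -0.72 ± 0.16, adjusted p = 0.00303) fell as well. Jun, another AP-1 partner, went the other way: its values were 43.8, 69.5, 67.1 and 68.7 at day 0 and 106, 149, 187 and 133 at day 1. Day 1 libraries were all higher, and Jun rose by 1.19 ± 0.23 (adjusted p = 0.00125). Fosl1 rose too, by 1.05 ± 0.20 (adjusted p = 0.00136). Myc had values of 193, 239, 241 and 118 at day 0 and 300.3, 301, 338 and 230.2 at day 1; the lowest day 1 library lay below 2 of day 0, and its call (change 0.60 ± 0.23, adjusted p = 0.0458) was lost with edgeR and DESeq2 and without any of 5 single libraries, namely 1 or 4 of day 0 and 1, 2 or 3 of day 1. A search of the RefSeq promoter windows (GRCm38.p6) for the AP-1 element TGANTCA on both strands found it in 7.819% of all 27025 genes and in 0 of 21 of these with a window.

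Genes of DNA replication rose together while genes of mitosis did not. Of 40 replication genes, 29 rose and 0 fell, with a median of 2.04; edgeR called 24 higher and 1 lower. Of 33 mitosis genes, 30 passed the filter, and 2 rose and 2 fell (median -0.36, or -1.06 with edgeR). Those mitosis counts shifted with single libraries: without library 3 of day 0 they were 5 and 1, and without library 2 or library 4 of day 0 they were 2 and 5 or 3 and 5. Without library 1, 2 or 3 of day 1, 1 gene was lower, and 5 were lower with DESeq2.

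The promoter windows of replication genes that rose are shown because this gene class is known to be controlled by E2F factors. The motif letters TTCCCGC and TTGGCGC, and the variant TTCGCGC, were searched on both strands in the windows upstream of RefSeq start sites. A match was found in 7.682% of all 27025 genes, in 8 of 22 replication genes that rose and had a window, and in 5 of 10 that were not called higher. The windows come from GRCm38.p6, a build other than the mm39 of the table. The stretch of Mcm7 lies on the minus strand at chr5:138171333-138171419 and ends 66 bases before the annotated start. The stretch of Fen1 lies on the minus strand at chr19:10203922-10203995 and ends at the start site. Capitals mark the match.
Mcm7: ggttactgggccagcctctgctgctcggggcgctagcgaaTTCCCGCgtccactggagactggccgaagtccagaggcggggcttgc
Fen1: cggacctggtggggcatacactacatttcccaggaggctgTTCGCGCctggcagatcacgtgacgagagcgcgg
A match describes letters and is not a measured site.

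Mcm2, a subunit of the replicative helicase, was close to absent at day 0: its values were 1.03, 0.537, 0.524 and 6.8 at day 0 and 70.9, 139.9, 125 and 64.2 at day 1. The highest library of day 0 was far below the lowest of day 1, and the change was 5.27 ± 0.56 (adjusted p = 2.95e-05). Mcm3 had values of 16.9, 4.54, 8.2 and 15.2 at day 0 and 165, 151, 221 and 126 at day 1 and rose by 3.89 ± 0.37 (adjusted p = 1.49e-05). Mcm7, the helicase subunit whose promoter is printed above, rose from 29.7, 18.2, 45 and 21.8 at day 0 to 188, 218, 264 and 185 at day 1. Its change was 2.92 ± 0.27 (adjusted p = 1.24e-05), with no overlap. Fen1, the nuclease that trims Okazaki fragments, had values of 0.0995, 1.32, 0.0276 and 0.0457 at day 0 and 29.6, 48.6, 54 and 35.7 at day 1, the day 0 values resting on 19 counts in all. The change of 5.02 ± 0.46 (adjusted p = 1.22e-05) therefore depends on the pseudocount of 1. Rpa2, a subunit of the single-strand binding complex, rose by 2.90 ± 0.33 (adjusted p = 4.4e-05).

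Mki67, the common marker of cycling cells, stayed low: its values were 43.4, 2.75, 0.304 and 3.24 at day 0 and 4.25, 10.2, 2.48 and 1.47 at day 1. A single library of day 0 exceeded all others, the groups overlapped, and the change of -0.22 ± 0.95 did not pass (adjusted p = 0.867). Without that library the change was 0.79 and still did not pass (adjusted p = 0.321). Spc24, a kinetochore subunit, was 1 of the mitosis genes that rose, from 1.03, 2.11, 2.13 and 1.69 at day 0 to 14.6, 15.7, 14.9 and 17.3 at day 1 (change 2.62 ± 0.41, adjusted p = 0.000366). Bub1b, a spindle checkpoint kinase, fell from 22.3, 51.9, 22.4 and 9.91 at day 0 to 1.36, 4.15, 5.76 and 7.41 at day 1 (change -2.21 ± 0.58, adjusted p = 0.00795). Ccnb2, a mitotic cyclin, had overlapping groups; its call (change -2.57 ± 0.84, adjusted p = 0.0243) was lost without library 1 or 3 of day 0 and without library 1, 2 or 3 of day 1.

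At the entry to the cell cycle, 9 of 27 cyclins, kinases, inhibitors and E2F factors rose and 8 fell (median 0.48). The lower count was 5 without library 1 of either day. Cdk4, the kinase partner of D cyclins, had values of 101, 52.2, 118 and 107 at day 0 and 523, 541, 513 and 457 at day 1. All day 1 libraries were higher, by 2.48 ± 0.23 (adjusted p = 1.25e-05). Ccnd1, cyclin D1, had values of 55.6, 59.1, 65.2 and 73.7 at day 0 and 129.9, 143, 144 and 169 at day 1, a change of 1.20 ± 0.17 (adjusted p = 0.000188). Its relative Ccnd2 had overlapping groups, and its fall of 1.38 ± 0.49 (adjusted p = 0.0349) was lost when library 1 or 2 of day 0, or 1, 2 or 3 of day 1, was left out. E2f4, a repressive E2F, rose by 3.18 ± 0.45 (adjusted p = 0.000205). Kinase inhibitors were among the genes that fell. Cdkn1c (p57) had values of 66.6, 92, 34.5 and 37.5 at day 0 and 6.25, 5.74, 4.56 and 15.3 at day 1 and changed by -2.73 ± 0.44 (adjusted p = 0.000484). Cdkn2c (p18) changed by -1.74 ± 0.23 (adjusted p = 0.000143). Cdkn1b (p27) had values of 29.8, 36, 32 and 41.6 at day 0 and 14.1, 11.9, 17.3 and 15.2 at day 1 and changed by -1.20 ± 0.28 (adjusted p = 0.00409). Cdkn1a (p21) moved little (change -0.30 ± 0.11, adjusted p = 0.0441), and its call was lost without any of 6 single libraries, namely 1, 2 or 4 of either day.

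Genes for making ribosomes and proteins rose broadly. Ribosome biogenesis had 32 of 36 genes higher and 1 lower (median 2.04). Ncl, the nucleolar protein nucleolin, had values of 664, 762, 711 and 765 at day 0 and 2089, 1954, 1826 and 2039 at day 1. The groups were far apart, with a change of 1.45 ± 0.10 (adjusted p = 2.11e-06). Npm1, nucleophosmin, rose by 1.5 ± 0.12 (adjusted p = 4.92e-06). Nop16 rose from 54.6, 17, 48.8 and 11.4 at day 0 to 555, 518, 435 and 542 at day 1, a change of 4.19 ± 0.42 (adjusted p = 2.14e-05), and Nhp2 by 3.81 ± 0.27 (adjusted p = 2.16e-06). Taf1d, a subunit of the RNA polymerase I initiation complex, was the single member that fell (change -0.82 ± 0.13, adjusted p = 0.000511).

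Ribosomal protein genes moved less: 35 of 62 rose and 0 fell, with a median of 0.57, and after quantile normalization 20 rose and 5 fell (median 0.20). Rplp0 had values of 996, 928, 1057 and 1190.4 at day 0 and 3335, 3252, 2921 and 3534 at day 1 and changed by 1.65 ± 0.11 (adjusted p = 1.73e-06). Rpl3 changed by 1.70 ± 0.12 (adjusted p = 2.13e-06). Reads of ribosomal protein genes may be shared with their many pseudogenes. Among translation initiation factors 30 of 40 rose and 2 fell (median 1.38). Eif5a had values of 993, 965, 1176 and 802 at day 0 and 4829.5, 4737, 4609 and 4604 at day 1 and changed by 2.27 ± 0.12 (adjusted p = 4.45e-07). Eif4ebp1, an inhibitor of cap-dependent translation, rose as well, by 2.54 ± 0.18 (adjusted p = 2.69e-06). Eif4a2, a helicase of the initiation complex, fell (change -1.19 ± 0.19, adjusted p = 0.000387). Of 20 aminoacyl-tRNA synthetases, 18 rose and none fell, the highest list median (2.39) of the 34 pathway lists. Mars, the methionyl enzyme, rose from 1.69, 4.54, 1.85 and 3.61 at day 0 to 133, 139, 141 and 83.5 at day 1 (change 5.03 ± 0.35, adjusted p = 2.18e-06). Sars, the seryl enzyme, rose by 3.60 ± 0.26 (adjusted p = 2.71e-06).

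Genes of amino acid synthesis held 3 of the 5 largest rises among the named genes. Of 29 targets of the transcription factor ATF4 and enzymes of amino acid synthesis, 21 rose and 1 fell (median 1.64). Phgdh, the first enzyme of serine synthesis, had values of 15.3, 3.33, 0.58 and 0.685 at day 0 and 295, 249, 298 and 211 at day 1. Every day 1 library lay above every day 0 library, by 6.14 ± 0.63 log2 units (adjusted p = 2.32e-05). Shmt2, which turns serine into glycine in mitochondria, had values of 3.82, 10.3, 2.4 and 2.15 at day 0 and 295, 258, 285 and 212 at day 1 and changed by 5.74 ± 0.38 (adjusted p = 1.66e-06). Mthfd2, the next enzyme of mitochondrial folate metabolism, had values of 0.299, 0.179, 1.24 and 10.1 at day 0 and 163, 142, 178 and 123 at day 1 and changed by 5.93 ± 0.63 (adjusted p = 2.86e-05).

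Asns, asparagine synthetase, is the classic ATF4 target, and its promoter is shown for the CEBP-ATF element TGATGNAA. That element was found on either strand in 3.907% of all genes with a window, in 4 of 20 ATF4 list members that rose and in 2 of 7 that were not called higher. The stretch of Asns lies on the minus strand of GRCm38.p6 at chr6:7693210-7693272 and ends at the start site, with the match in capitals.
Asns: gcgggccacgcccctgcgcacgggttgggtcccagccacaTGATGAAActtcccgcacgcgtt
Its values were 0.0995, 3.69, 0.0828 and 0.137 at day 0 and 131, 76.8, 108 and 66.7 at day 1, and 3 of the day 0 libraries were close to no read. The change was 5.88 ± 0.54 (adjusted p = 1.19e-05). Slc3a2, the heavy chain of amino acid transporters, rose from 225, 288, 256 and 201 at day 0 to 744, 649.7, 776 and 679 at day 1 (change 1.56 ± 0.14, adjusted p = 9.46e-06). Gdf15, a secreted stress hormone, had values of 211, 134, 123 and 201 at day 0 and 379, 390.3, 454 and 427 at day 1, all higher at day 1, and changed by 1.33 ± 0.19 (adjusted p = 0.000193). Vldlr, a lipoprotein receptor, was the single member that fell (change -0.97 ± 0.29, adjusted p = 0.0156).

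Chaperone genes of the endoplasmic reticulum, the cytosol and the mitochondria rose more often than they fell. Among endoplasmic reticulum chaperones and sensors 15 of 26 rose and 4 fell (median 0.84). P4hb, protein disulfide isomerase, rose from 218, 269.6, 287 and 215 at day 0 to 819, 994, 1022 and 723 at day 1 (change 1.84 ± 0.15, adjusted p = 6.78e-06). Calr, calreticulin, rose by 1.46 ± 0.14 (adjusted p = 1.46e-05) and Dnajc3, a co-chaperone that restrains the kinase PERK, fell (change -0.67 ± 0.16, adjusted p = 0.00447). Among cytosolic chaperones 25 of 33 rose and 2 fell (median 1.13). Hsp90ab1, an HSP90, had values of 2846, 2418, 2506 and 2528 at day 0 and 5581, 4977, 5389 and 5270.1 at day 1 and changed by 1.04 ± 0.09 (adjusted p = 1.06e-05). Dnajb1, an HSP40 co-chaperone, had values of 101, 92.7, 128 and 97.6 at day 0 and 278, 299, 319 and 292 at day 1 and changed by 1.51 ± 0.15 (adjusted p = 1.61e-05). Fkbp4, an HSP90 co-chaperone, rose by 2.62 ± 0.13 (adjusted p = 3.46e-07), and none of these 3 had overlapping groups.

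Both stress-inducible HSP70 genes rose. Hspa1a had values of 137, 156, 222 and 281 at day 0 and 433, 446, 888 and 317 at day 1, a change of 1.33 ± 0.31 (adjusted p = 0.00408). Hspa1b, its near-identical neighbour, had values of 489.5, 550.5, 633 and 532 at day 0 and 829.7, 817, 1312 and 659 at day 1, a change of 0.67 ± 0.19 (adjusted p = 0.0119) that was lost without the variance trend and after quantile normalization. The division of reads between these copies is uncertain. Cryab, a small heat shock protein, had overlapping values of 1650.1, 1217, 1449.5 and 1558 at day 0 and 2067, 1560.3, 1621 and 1827 at day 1 and did not pass (change 0.27 ± 0.13, adjusted p = 0.107; -0.13 after quantile normalization), though it did with the replicate number as a block (adjusted p = 0.0252). Dnajb4 fell (change -0.75 ± 0.15, adjusted p = 0.00176).

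Chaperonins, the ring-shaped folding machines of cytosol and mitochondria, with their helpers, rose in 19 of 22 genes and none fell (median 1.88). Hspd1 encodes mitochondrial HSP60 and shares a head-to-head promoter with Hspe1. Its window is shown for the heat shock element, searched as GAANNTTC and TTCNNGAA. These letters occur in 14.55% of all genes, in 9 of 21 cytosolic chaperones that rose and 1 of 6 that were not called higher, and in 4 of 16 chaperonins that rose. The stretch lies on the minus strand of GRCm38.p6 at chr1:55088019-55088116, ending 86 bases before the start site of Hspd1, and the capitals cover 3 overlapping matches.
Hspd1: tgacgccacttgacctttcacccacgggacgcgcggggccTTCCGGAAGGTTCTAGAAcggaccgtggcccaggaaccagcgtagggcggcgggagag
Hspd1 had values of 264, 211, 328 and 231 at day 0 and 1358, 1321, 1262 and 1152 at day 1 and changed by 2.31 ± 0.15 (adjusted p = 1.08e-06). Cct8, a subunit of the cytosolic ring, had values of 454, 399, 402 and 326 at day 0 and 1895, 1736, 1672 and 1649 at day 1 and changed by 2.14 ± 0.12 (adjusted p = 6.17e-07). In both genes the day 1 libraries were all higher and close together.

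Antioxidant and iron genes rose as well. Of 32 targets of the transcription factor NRF2 and related oxidative stress genes, 21 rose and none fell (median 1.69; 16 rose with edgeR). Hmox1, haem oxygenase, which opens the haem ring and frees its iron, had values of 115, 160.1, 130.3 and 117 at day 0 and 1676, 1333, 1732 and 1600.2 at day 1. The groups were far apart, with a change of 3.60 ± 0.14 (adjusted p = 1.01e-07). Srxn1, sulfiredoxin, rose from 43.8, 74.8, 51.4 and 71.2 at day 0 to 346, 328, 450.3 and 359 at day 1 (change 2.62 ± 0.20, adjusted p = 3.6e-06). Prdx6, a peroxiredoxin, rose by 2.32 ± 0.12 (adjusted p = 4.45e-07).

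G6pdx, which makes NADPH at the entry of the pentose phosphate pathway, had values of 12, 15.9, 16 and 7.08 at day 0 and 129, 139.7, 157 and 94.5 at day 1, a change of 3.29 ± 0.29 (adjusted p = 9.98e-06). Its promoter is shown for the core of the antioxidant response element, TGACNNNGC, which here reads on the opposite strand. That core was found in 11.52% of all genes, in 2 of 17 NRF2 list members that rose and in 5 of 9 that were not called higher. The stretch lies on the minus strand of GRCm38.p6 at chrX:74428889-74428977 and ends 8 bases before the start site.
G6pdx: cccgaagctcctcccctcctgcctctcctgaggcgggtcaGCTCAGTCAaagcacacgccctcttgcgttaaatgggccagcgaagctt
Of 22 genes of haem breakdown and iron handling, 11 rose and 1 fell (median 0.76). The light chain of ferritin, Ftl1, had values of 2163, 1771, 1943 and 2373 at day 0 and 9323, 8572, 8385 and 9399.7 at day 1. Its groups were apart by 2.12 ± 0.11 log2 units (adjusted p = 4.45e-07). The heavy chain, Fth1, had values of 4179.6, 3756, 3819 and 4637 at day 0 and 6836, 6087, 5822 and 7244 at day 1, a smaller rise of 0.66 ± 0.11 (adjusted p = 0.000575). Slc39a14, a zinc and iron importer, was the member that fell (change -0.58 ± 0.16, adjusted p = 0.0119), a call lost without the variance trend.

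Targets of p53 showed no common direction: 11 of 31 rose and 8 fell, with a median of 0.28 that was -0.03 with edgeR and -0.02 with DESeq2, where 7 rose. The lower count was 5 without library 2 of day 0. Bax, a pore former of apoptosis, rose from 30.0, 27.9, 20.2 and 13 at day 0 to 167, 183, 186 and 155 at day 1 (change 2.93 ± 0.26, adjusted p = 9.29e-06). Fas, a death receptor, fell (change -0.81 ± 0.16, adjusted p = 0.00159). Without library 2 of day 0, 5 members were lower.

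The proteasome rose almost as a whole. Of 45 subunit, assembly and regulator genes, 43 rose, 1 fell and 1 was not called (median 1.94). Psmd3, a lid subunit, had values of 12.3, 13.9, 24.2 and 11.9 at day 0 and 215, 278, 289 and 206 at day 1 and changed by 3.94 ± 0.25 (adjusted p = 1.21e-06). Psma7, a core subunit, had values of 108, 96.9, 103 and 147 at day 0 and 689, 634, 522 and 676 at day 1 and changed by 2.47 ± 0.16 (adjusted p = 1.43e-06). Every day 1 library was higher in both. Psme4, the PA200 activator, was the exception: its values were 188, 152, 139 and 147 at day 0 and 113, 89.6, 105 and 97.6 at day 1, a fall of 0.62 ± 0.16 (adjusted p = 0.00712).

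Components of chaperone-mediated autophagy rose in 13 of 22 genes and fell in 3 (median 0.79). Several that rose are the cytosolic chaperones above, which the list shares. Those that fell were Lamp2 itself, Ncor1, a co-repressor (change -1.47 ± 0.18, adjusted p = 7.05e-05), and Rictor, a subunit of mTORC2 (change -1.46 ± 0.23, adjusted p = 0.000352). In macroautophagy, the vesicle-based route to the lysosome, 9 of 41 rose and 6 fell (median 0.49). Sqstm1, the cargo adaptor p62, had values of 2006, 1953, 2132 and 1436 at day 0 and 3950.4, 3749, 4409 and 3606 at day 1 and rose by 1.07 ± 0.13 without overlap (adjusted p = 9e-05). Genes of the initiating kinase complex moved both ways. Rb1cc1 had values of 133, 163, 133 and 157 at day 0 and 28.9, 32.5, 36 and 59.4 at day 1 (change -1.93 ± 0.23, adjusted p = 7.48e-05) and Ulk1 changed by -1.37 ± 0.26 (adjusted p = 0.00133), while Atg101 (change 2.26 ± 0.34, adjusted p = 0.000286) and, named after its values were seen, Atg13 (change 2.29 ± 0.53, adjusted p = 0.00413) rose. Among lysosome genes 16 of 45 rose and 7 fell (median 0.63). Cd63, a membrane protein of late endosomes, had values of 4232, 3319, 3662 and 4298 at day 0 and 9012, 8491, 7782 and 9002 at day 1 and rose by 1.15 ± 0.11 (adjusted p = 1.62e-05). The cathepsins divided: Ctsd rose by 2.03 ± 0.23 (adjusted p = 4.1e-05), while Ctsl fell by 0.87 ± 0.11 (adjusted p = 8.65e-05) and Ctsk by 3.53 ± 0.53 (adjusted p = 0.000302).

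Of 73 nuclear genes of oxidative phosphorylation, 60 rose and none fell (median 1.23). Cyc1, cytochrome c1, had values of 50.7, 78, 48 and 60.8 at day 0 and 547, 597, 574 and 545 at day 1 and changed by 3.26 ± 0.17 (adjusted p = 4.17e-07). Atp5b, the catalytic subunit of ATP synthase, had values of 1014, 879, 1012 and 730.1 at day 0 and 3728, 3656, 3913 and 3491 at day 1 and changed by 2.03 ± 0.12 (adjusted p = 8.24e-07). Both were higher in every day 1 library. Of the 13 mitochondrially encoded genes, 6 fell and 1 rose (median -0.57). The lower count was 3 without library 4 of day 0, whose mitochondrial share was the highest at 13.3%, 3 without library 3 of day 1 and 2 without the variance trend. mt-Nd3 had values of 1070.2, 823, 808 and 1947 at day 0 and 317, 225, 166 and 331 at day 1 and fell by 2.11 ± 0.29 (adjusted p = 0.000181). mt-Atp6 had values of 19337, 16462, 15916 and 31206 at day 0 and 13569, 10056, 8696 and 13627 at day 1; its fall of 0.82 ± 0.22 (adjusted p = 0.00899) became a rise of 0.64 after quantile normalization (adjusted p = 0.0362). mt-Nd5 rose by 0.54 ± 0.21 (adjusted p = 0.0477) with overlapping groups, a call lost with edgeR and DESeq2 and without any of 6 single libraries, namely 1, 2 or 3 of day 0 and 1, 2 or 4 of day 1.

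Central carbon metabolism rose in most genes. In the tricarboxylic acid cycle 21 of 25 rose and none fell (median 1.51). Sdhd, an anchor of succinate dehydrogenase, had values of 39.4, 66.3, 56.7 and 29.3 at day 0 and 382, 429, 380.3 and 365 at day 1 and rose by 3.06 ± 0.23 (adjusted p = 3.78e-06). In glycolysis and the pentose phosphate pathway 19 of 31 rose and 1 fell (median 1.61). Ldha, which makes lactate, had values of 490.3, 378, 487 and 513 at day 0 and 2607, 2943, 3015 and 2611 at day 1 and rose by 2.58 ± 0.12 (adjusted p = 2.35e-07). Eno1, enolase, rose by 3.64 ± 0.16 (adjusted p = 1.49e-07), with reads that may be shared with its copy Eno1b. Pfkp, the platelet form of phosphofructokinase, was the one glycolytic gene that fell (change -1.13 ± 0.16, adjusted p = 0.000201). For fatty acid oxidation 13 of 28 rose and 1 fell (median 0.87; 8 rose with edgeR). Etfb, which passes electrons to the respiratory chain, rose by 1.45 ± 0.18 (adjusted p = 8.28e-05). Cpt1b, the muscle form of the carnitine transferase, fell from 6.67, 6.62, 11.2 and 2.88 at day 0 to 0.0278, 0.072, 0.235 and 0.561 at day 1 (change -2.59 ± 0.42, adjusted p = 0.000485). Every day 1 value of Cpt1b was under 1, so it passed the filter only through day 0, which fixed its lack of overlap in advance. Sterol synthesis had 18 of 27 higher and 1 lower (median 1.5). Fdps, which makes farnesyl units, rose by 2.22 ± 0.29 (adjusted p = 0.000113), and Insig2, which holds back sterol synthesis, fell (change -0.72 ± 0.12, adjusted p = 0.000704).

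**Figure D4:**
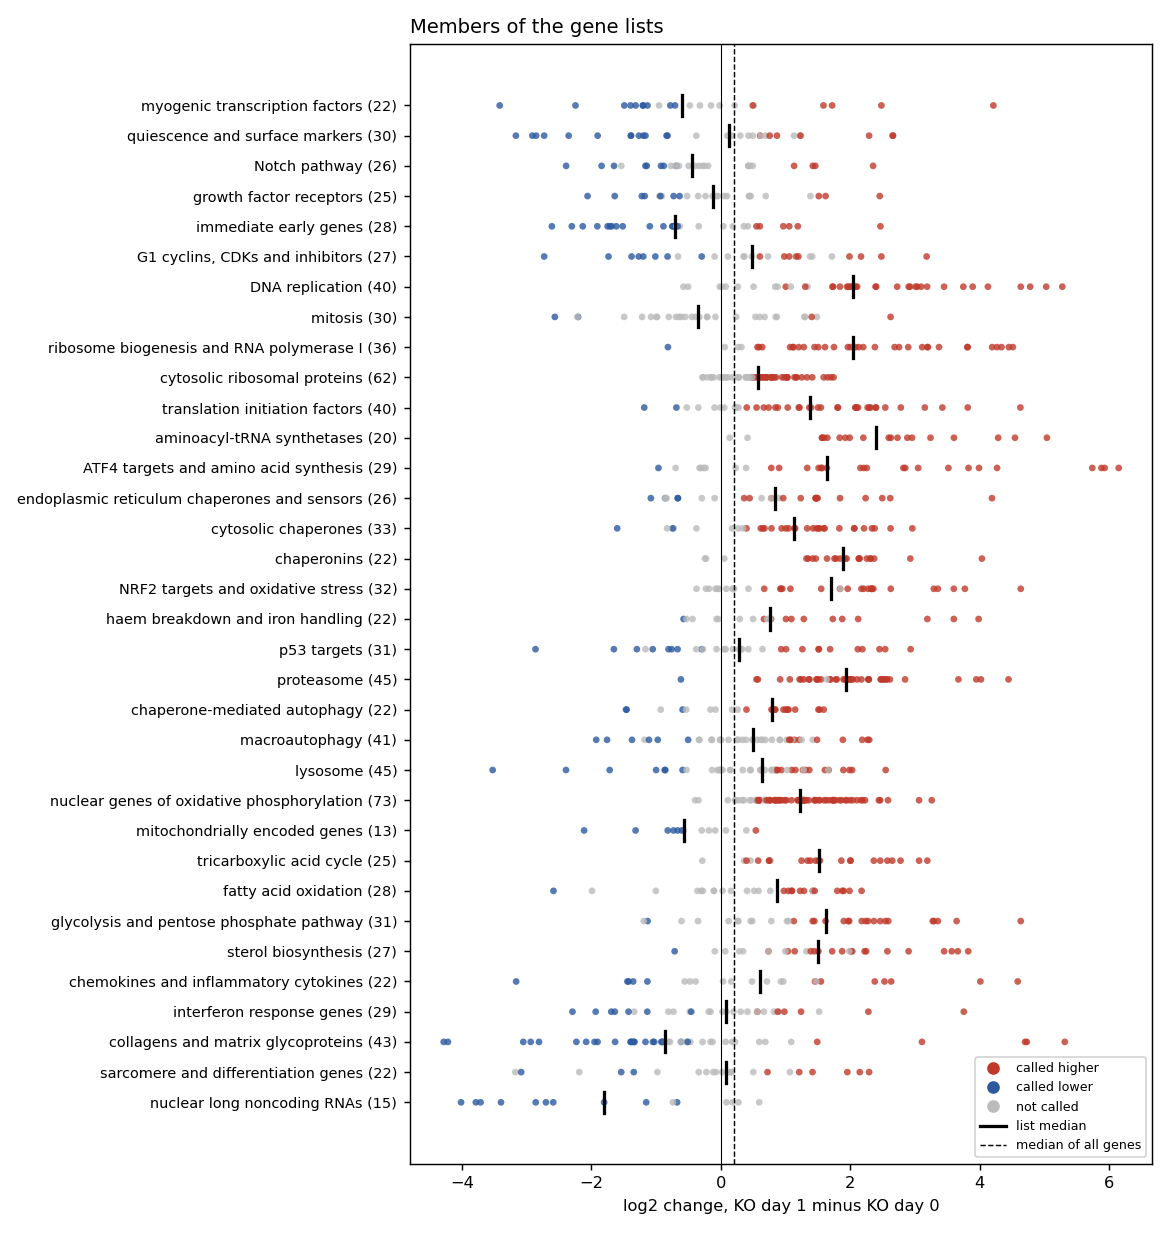
Log2 change from KO day 0 to KO day 1 of each tested member of the 34 pathway lists (number tested in brackets), red where called higher, blue where called lower, grey where not called; thick ticks are list medians and the dashed line is the median of all genes, 0.20. Aminoacyl-tRNA synthetases, DNA replication and ribosome biogenesis lie to the right with medians of 2.04 to 2.39. The list labelled nuclear long noncoding RNAs lies to the left at -1.81.

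Some of these lists held no call in one direction. There, limma gave an unadjusted p under 0.05 downward for 1 replication gene, and for 0 genes of ribosomal proteins, synthetases, chaperonins, NRF2 targets, nuclear oxidative phosphorylation and the tricarboxylic acid cycle. Of those lists edgeR called 1 replication gene lower, and DESeq2 1 replication gene and 2 of oxidative phosphorylation.

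Inflammatory genes were mixed. Of 35 chemokines and cytokines, 22 passed the filter, 7 (31.8%) rose and 5 (22.7%) fell (median 0.60). These shares are near the 28.8% and 22.3% of all genes tested. The lower count was 3 without library 1, 2 or 3 of day 1. Cxcl3 and Cxcl5, which attract neutrophils, came from near zero: Cxcl3 had values of 0.63, 0.394, 0.524 and 0.137 at day 0 and 26.7, 18, 23.9 and 19.2 at day 1 (change 4.01 ± 0.41, adjusted p = 2.25e-05). Cxcl5 had values of 0.232, 0.394, 0.193 and 0.32 at day 0 and 8.42, 7.85, 55 and 191 at day 1, uneven at day 1 (change 4.58 ± 0.89, adjusted p = 0.0014). Both genes had every day 0 value under 1 and passed the filter only through day 1, which fixed their lack of overlap in advance. Their relative Cxcl1 fell, from 1340.5, 1035, 1140.3 and 1474 at day 0 to 431, 605, 505 and 757 at day 1 (change -1.14 ± 0.18, adjusted p = 0.000402). Ccl11, which attracts eosinophils, rose by 1.54 ± 0.26 (adjusted p = 0.00067). Among interferon response genes 6 of 29 (20.7%) rose and 7 (24.1%) fell. Their median of 0.08 turned negative with quantile normalization (-0.09), edgeR (-0.61), DESeq2 (-0.60), a pseudocount of 5 (-0.01) and without library 4 of day 0 (-0.07). Irf1 fell (change -1.43 ± 0.31, adjusted p = 0.00267) and Bst2 rose (change 3.75 ± 0.57, adjusted p = 0.000321).

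Matrix genes were mostly lower. Of 43 collagens and matrix glycoproteins, 23 fell and 5 rose (median -0.87). Thbs2, a thrombospondin, had values of 552, 554, 583 and 580.0 at day 0 and 159, 99.1, 152 and 131 at day 1 and fell by 2.08 ± 0.16 (adjusted p = 3.58e-06). Lama2, the laminin chain of the muscle basal lamina, had values of 395, 469, 270.3 and 333 at day 0 and 93, 96.3, 87.7 and 91.5 at day 1 and fell by 1.95 ± 0.17 (adjusted p = 9.98e-06). Groups did not overlap in either. Lama4, another laminin chain, fell by 4.28 ± 0.53 (adjusted p = 8.17e-05), and Col3a1, a fibrillar collagen, by 1.34 ± 0.13 (adjusted p = 1.92e-05). Fibro-adipogenic progenitors make many of these proteins, and 6 of 14 tested markers of theirs fell while 2 rose. The part of those cells in the fall was not tested.

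A few matrix genes rose steeply. Timp1, an inhibitor of matrix metalloproteinases, had values of 3.35, 5.55, 5 and 3.88 at day 0 and 225, 219.9, 155 and 265 at day 1. The groups were far apart, by 5.31 ± 0.27 (adjusted p = 3.46e-07). Tnc, tenascin C, a glycoprotein of injured matrix, had values of 1.69, 2.18, 3.06 and 19.7 at day 0 and 143, 128, 170.0 and 109.9 at day 1 and changed by 4.72 ± 0.56 (adjusted p = 6.45e-05). Bgn, biglycan, rose by 3.11 ± 0.18 (adjusted p = 7.61e-07). Sarcomere and differentiation genes did not move together: 6 of 22 rose and 3 fell. Their median of 0.07 turned negative with quantile normalization (-0.14), edgeR and DESeq2 (both -0.51), a pseudocount of 5 (-0.10) and without library 3 of day 0 (-0.0029) or library 4 of day 1 (-0.04). The lower count was 5 without library 3 of day 0 and 1 without library 2, 3 or 4 of day 1. Des, desmin, an early muscle filament, had values of 273, 316, 360.2 and 246 at day 0 and 975, 1066, 1585 and 1049.6 at day 1 and rose by 1.95 ± 0.18 (adjusted p = 1.02e-05). Ttn, titin, had values of 40.2, 123, 32.3 and 18.2 at day 0 and 8.8, 4.3, 2.58 and 2.38 at day 1 and fell by 3.09 ± 0.59 (adjusted p = 0.00127).

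Long noncoding RNAs were lower in 10 of 15 cases and higher in 0 (median -1.81). Their list is labelled nuclear but was not limited to RNAs that stay in the nucleus. The count of higher genes was also 0 at an unadjusted limma p under 0.05 and with edgeR and DESeq2. Malat1, a nuclear speckle RNA, had values of 65534, 69709, 55652 and 65401 at day 0 and 10821, 9591, 8716 and 10184 at day 1. It fell by 2.70 ± 0.11 (adjusted p = 1.01e-07). Neat1, the scaffold of paraspeckles, had values of 2855, 3692, 2551 and 2256 at day 0 and 439, 467, 489 and 456 at day 1 and fell by 2.59 ± 0.14 (adjusted p = 5.72e-07). Meg3, an imprinted RNA, had values of 649, 786, 723 and 595 at day 0 and 39.9, 48.3, 32.3 and 47.1 at day 1, a fall of 4.02 ± 0.17 (adjusted p = 1.32e-07). Kcnq1ot1, another imprinted RNA, fell by 3.40 ± 0.11 (adjusted p = 3.22e-08). Values of day 1 were below those of day 0 in every library for all 4 genes. Whether the share of nuclear RNA in the libraries differed between days was not tested.

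The largest changes outside these lists were also examined. Cd320, the receptor for the vitamin B12 carrier, had values of 0.232, 0.0358, 0.635 and 0.0457 at day 0 and 96.2, 87.4, 76.5 and 93.4 at day 1, with 14 counts at day 0 in all. Its change of 6.19 ± 0.38 (adjusted p = 9.91e-07) was the largest rise among named genes. Every day 0 value of Cd320 was under 1, so it passed the filter only through day 1, which fixed its lack of overlap in advance. Galk1, galactokinase, had values of 3.02, 0.179, 0.58 and 0.137 at day 0 and 83.4, 99.3, 97.8 and 79.5 at day 1 and changed by 5.73 ± 0.47 (adjusted p = 5.75e-06). Smyd5 (change 5.83 ± 0.44, adjusted p = 3.32e-06) and Thop1, a peptidase (change 5.54 ± 0.54, adjusted p = 1.64e-05), were likewise near zero at day 0 and present in every library at day 1. Those fold changes depend on the pseudocount.

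Among falls, Lsmem1 had values of 47.3, 58.1, 48.9 and 34.7 at day 0 and 0.75, 0.744, 0.495 and 0.401 at day 1 and changed by -4.90 ± 0.40 (adjusted p = 5.75e-06). Cldn1, a tight junction protein, had values of 40.2, 42.3, 61.4 and 18.1 at day 0 and 0.0833, 0.072, 0.0261 and 1.74 at day 1, a change of -4.83 ± 0.53 (adjusted p = 3.93e-05). Igfbp6, which binds insulin-like growth factor II, had values of 185, 174, 202 and 148 at day 0 and 3.64, 5.26, 3.26 and 13.8 at day 1, a change of -4.76 ± 0.38 (adjusted p = 4.96e-06). Lsmem1, with every day 1 value under 1, passed the filter only through day 0, which fixed its lack of overlap in advance. In Lsmem1, Cldn1 and Igfbp6 the day 1 libraries lay below all day 0 libraries. Pdzd2 (change -4.51 ± 0.29, adjusted p = 1.41e-06), Filip1l (change -4.23 ± 0.22, adjusted p = 4.45e-07) and Mrln, a regulator of the calcium pump of muscle (change -4.25 ± 0.38, adjusted p = 9.98e-06), fell in the same way. Pthlh, parathyroid hormone-like hormone, had values of 620.2, 464, 614 and 623 at day 0 and 369.9, 463, 427 and 448 at day 1. Its small fall of 0.44 ± 0.14 (adjusted p = 0.0194) was lost without library 1 of day 1, without the variance trend and with the spread of all 24 libraries.

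The same step in WT was used to ask where KO changed differently. The change in KO minus the change in WT was tested over 16 libraries and 14841 genes. It passed for 1616 genes (10.9%), positive in 1077 (7.26%) and negative in 539 (3.63%). DESeq2 called 1124 (7.57%) and 928 (6.25%), and edgeR 954 (6.43%) and 407 (2.74%). Without library 2 or library 4 of WT at day 1 the negative count was 347 or 343. Lamp2 gave a difference of 0.09 ± 0.22 that did not pass (adjusted p = 0.855) and changed sign under quantile normalization, DESeq2 and without library 2 of WT at day 0.

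Hmox1 had the largest difference of all genes tested in KO. In WT its values were 375, 563, 708 and 675 at day 0 and 43.2, 47.8, 50.6 and 39.9 at day 1. The change in WT was -3.61 where that in KO was 3.60, a difference of 7.21 ± 0.25 (adjusted p = 1.07e-11), and at day 0 every WT library was above every KO library. The same form held for the inducible HSP70 genes: Hspa1b had WT values of 2515, 2372, 1941 and 2148 at day 0 and 119, 129, 221 and 113 at day 1, against a rise in KO, a difference of 4.66 ± 0.29 (adjusted p = 3.54e-08). Hspa1a differed by 4.81 ± 0.42 (adjusted p = 1.49e-06) and Cryab by 3.12 ± 0.19 (adjusted p = 3.15e-08). Of 33 cytosolic chaperones, 23 had a positive difference and none a negative one, against 7.26% and 3.63% of all genes. Their median change was -0.27 in WT and 1.13 in KO. Their summed values were 16167 to 17738 in KO and 27042 to 31730 in WT at day 0. At day 1 the sums were 27366 to 30789 in KO and 16311 to 16733 in WT.

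Several other stress genes differed in the same direction. NRF2 targets had 12 positive and 2 negative of 32, and chaperone-mediated autophagy 10 and 1 of 22, against 7.26% and 3.63% of all genes. Srxn1 differed by 3.07 ± 0.46 (adjusted p = 0.000327), Ftl1 by 2.17 ± 0.17 (adjusted p = 4.15e-07) and Sqstm1 by 1.69 ± 0.22 (adjusted p = 0.000119). Gdf15 had a change of -1.62 in WT and a difference of 2.95 ± 0.37 (adjusted p = 7.58e-05). Dnajb1 differed by 2.03 ± 0.25 (adjusted p = 6.64e-05). Hspa8 (difference 1.39 ± 0.19, adjusted p = 0.000168) and Hsp90ab1 (difference 1.22 ± 0.10, adjusted p = 5.92e-07) passed here but not after quantile normalization (differences of 0.17 in each, adjusted p = 0.792 and 0.598 by limma). Fth1 had 0.62 ± 0.15 (adjusted p = 0.0141), which turned negative (-0.11) after quantile normalization.

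Some stem cell genes differed in each direction. Of all genes tested, 7.26% had a positive and 3.63% a negative difference (7.57% and 6.25% with DESeq2). These shares are the background for the counts that follow, and the positive count of quiescence and surface markers is near its share. Of 30 quiescence and surface markers, 3 had a positive and 4 a negative difference (8 negative with DESeq2), and of 22 myogenic factors 4 had a positive and 5 a negative one. The positive quiescence and surface markers were Gpx3 (1.29 ± 0.22, adjusted p = 0.000868) and, named after their values were seen, Fgl2 (3.29 ± 0.63, adjusted p = 0.00258) and Sdc4, a syndecan (1.30 ± 0.26, adjusted p = 0.00338). After quantile normalization the calls of Gpx3 (0.02, adjusted p = 0.977) and Sdc4 (0.81, adjusted p = 0.0584) were lost. On the negative side, Pax7, which fell in KO, had a change of 0.39 in WT. The WT values were 111, 71.9, 46.5 and 46.6 at day 0 and 100, 82.7, 77.2 and 81 at day 1, and the difference was -1.59 ± 0.35 (adjusted p = 0.00663). Chodl differed by -2.86 ± 0.18 (adjusted p = 3.54e-08), Calcr by -1.70 ± 0.28 (adjusted p = 0.00088) and Cd34 by -1.54 ± 0.27 (adjusted p = 0.00144). Myod1 did not pass (difference 0.93 ± 0.40, adjusted p = 0.16), though it did without library 1 of WT at day 0 (adjusted p = 0.0369). Of 28 immediate early genes, 8 had a negative (13 with DESeq2) and 2 a positive difference. Fosb differed by -2.69 ± 0.33 (adjusted p = 7.41e-05), Fos by -1.85 ± 0.43 (adjusted p = 0.0103) and Egr1 by -1.52 ± 0.28 (adjusted p = 0.00173). Jun was positive (1.24 ± 0.34, adjusted p = 0.0285), a call lost with library weights, without the variance trend, after quantile normalization and without library 2 or 4 of WT at day 1 or library 2 or 3 of KO at day 1. Irf1 differed by -1.73 ± 0.36 (adjusted p = 0.00459).

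In the cell cycle, Ccnd1 changed by 2.66 in WT, and the difference of -1.46 ± 0.22 passed (adjusted p = 0.000369). Mitosis genes had a median change of 2.02 in WT and -0.36 in KO, with 5 of 30 negative differences and none positive. The negative count was 3 with edgeR and 9 with DESeq2. Of all genes tested, 3.63% were negative with limma, 2.74% with edgeR and 6.25% with DESeq2. Mki67 had WT values of 0.103, 2.23, 0.346 and 0.0997 at day 0 and 8.53, 18.6, 7.9 and 5.44 at day 1, and its difference of -2.96 ± 1.15 did not pass (adjusted p = 0.115). It passed with DESeq2 (-5.52, adjusted p = 0.00951), with the spread of all 24 libraries (adjusted p = 0.0436) and without library 3 of KO at day 0 (-3.66, adjusted p = 0.0375). Replication genes had a WT median of 2.99, with 3 of 40 negative (2 with edgeR, 5 with DESeq2) and none positive. Mcm2 (difference -0.89 ± 0.70, adjusted p = 0.473) and Mcm3 (difference -2.18 ± 0.80, adjusted p = 0.0926) did not pass. Mcm3 did pass with all 24 libraries (adjusted p = 0.0403) and without library 2 (adjusted p = 0.0254) or 4 (adjusted p = 0.0428) of WT at day 0. Smc2, a condensin subunit, differed by -4.33 ± 0.96 (adjusted p = 0.00755), a call lost with edgeR. Ribosome biogenesis had 14 positive differences of 36 and none negative, against 7.26% and 3.63% of all genes. Among the positive ones was Ncl (0.88 ± 0.11, adjusted p = 9.65e-05), which was lost after quantile normalization (adjusted p = 0.0512). The ribosome biogenesis list summed to 4474 to 4736 in KO and 6625 to 7901 in WT at day 0. At day 1 it summed to 10953 to 11738 in KO and 10154 to 10842 in WT, so KO and WT lay further apart at day 0. Where mitosis, replication, ribosome biogenesis or cytosolic chaperones had no difference in one direction, limma at an unadjusted p under 0.05, edgeR and DESeq2 also gave 0.

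**Figure D5:**
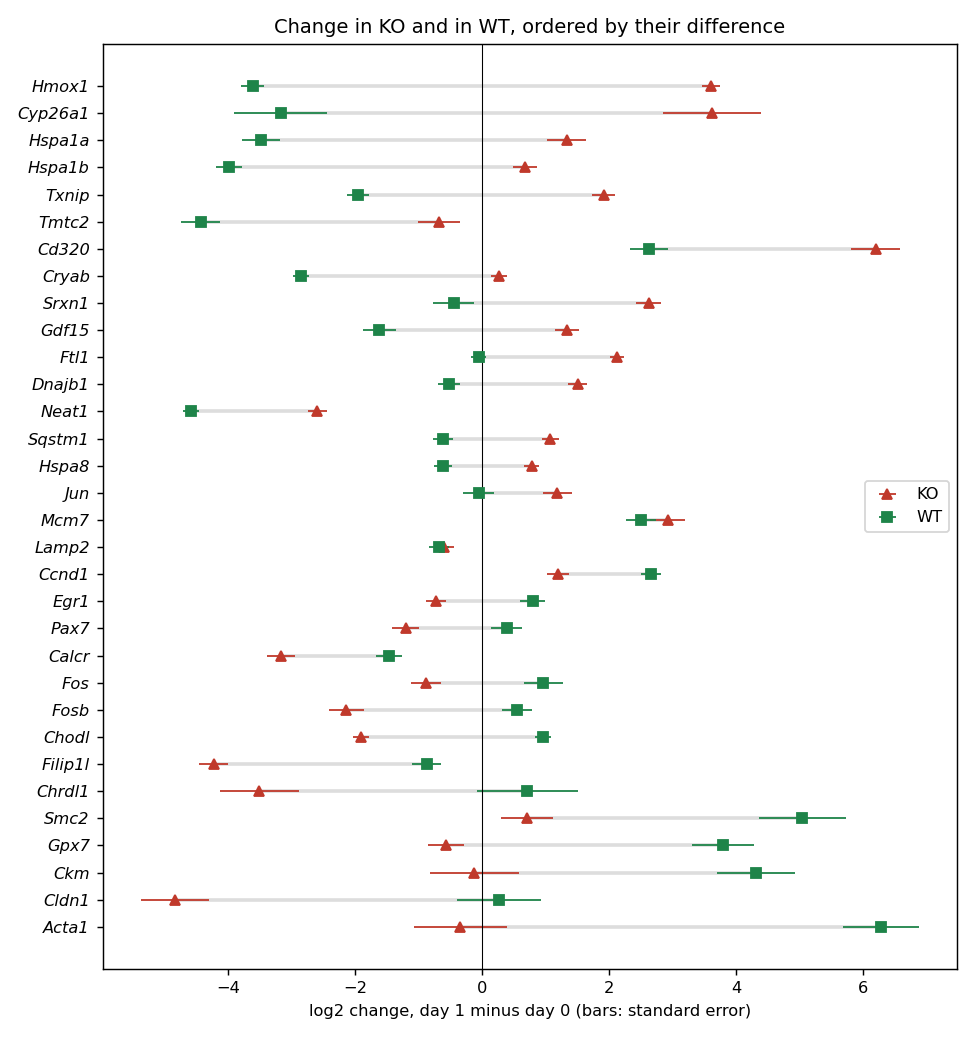
Log2 change from day 0 to day 1 (horizontal axis) in KO (red triangles) and WT (green squares) for 32 named genes, ordered by the difference between them, with bars of 1 standard error; KO errors come from the fit of 8 libraries and WT errors from the fit of 16. Hmox1, at the top, lies at 3.60 in KO and -3.61 in WT, and Acta1, at the bottom, at -0.34 and 6.28.

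Further genes with the largest differences were Cyp26a1, which breaks down retinoic acid (6.79 ± 1.03, adjusted p = 0.000381), Txnip, a glucose-responsive inhibitor of thioredoxin (3.87 ± 0.25, adjusted p = 3.58e-08), Tmtc2 (3.75 ± 0.42, adjusted p = 3e-05) and Cd320 (3.56 ± 0.42, adjusted p = 4.73e-05). Txnip had KO values of 75.3, 99.2, 110.0 and 66.5 at day 0 and 387, 286, 308 and 333 at day 1, a change of 1.91 ± 0.19, against -1.95 in WT. Fgfr1 (1.70 ± 0.15), Plaur (1.97 ± 0.19), Psme4 (1.42 ± 0.21) and Neat1 (1.99 ± 0.19) were positive too, with adjusted p of 1.68e-06, 5.19e-06, 0.000274 and 3.64e-06. Malat1 was positive as well (1.12 ± 0.21, adjusted p = 0.0023), but -0.30 after quantile normalization.

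On the negative side, Cldn1 differed by -5.09 ± 0.93 (adjusted p = 0.00173), Filip1l by -3.35 ± 0.32 (adjusted p = 3.87e-06), Gpx7 by -4.36 ± 0.69 (adjusted p = 0.00053) and Chrdl1 by -4.22 ± 1.13 (adjusted p = 0.023). The call of Chrdl1 was lost with edgeR and without library 1 of KO at day 1 or library 2 or 4 of WT at day 1. Acta1, skeletal actin, had KO values of 4.68, 46.6, 8.97 and 17.9 at day 0 and 36.7, 4.97, 7.27 and 9.54 at day 1, with overlap and no call (change -0.34 ± 0.73). Its WT values were 0.241, 0.109, 0.192 and 0.897 at day 0 and 89.5, 117, 125 and 82 at day 1, and the difference was -6.62 ± 0.84 (adjusted p = 9.24e-05). Ckm, muscle creatine kinase, differed by -4.43 ± 0.86 (adjusted p = 0.00295). These are genes of mature fibres, whose markers summed to 15.8 to 50.5 in WT at day 0 and 229 to 306 at day 1, against the overlapping sums in KO given above. The part of fibre RNA in the WT libraries was not tested. The difference was negative for 6 of 12 fibre markers tested, against 3.63% of all genes.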

How the data were processed

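Muscle stem cells were sorted and their total RNA was made into libraries with SMART-Seq v4, per the labels' protocols. The submitters' processing notes name FastQC, STAR, RSEM and limma, and build mm39, with no versions. The deposited table holds 1 linear normalised signal per gene and library. In every library these values equal a whole count plus 0.5, divided by 1 constant, which gave back whole counts for 100% of values within 0.02 of a count.

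The comparison was fitted with limma 3.58.1 (R 4.3.3) on log2(value + 1) with a mean-variance trend, in the 8 KO libraries alone. Genes were kept when 4 or more libraries reached a value of 1, and Benjamini-Hochberg adjusted p under 0.05 was the threshold, 2-sided. A fold change on this scale understates the change of low genes. The difference between KO and WT was the interaction contrast of 4 group means, fitted over 16 libraries with the same scale and threshold. On recovered counts, edgeR 4.0.16 (quasi-likelihood, TMM) called 5369 genes and DESeq2 1.42.0 called 6245. Total counts set the precision: 3 counts correspond to values of 0.193 to 0.320 at day 0 and 0.168 to 0.194 at day 1. For 45 genes the symbol was missing or had the form of a date, and it was looked up by gene identifier. Of these, 10 were not found. Members and gene lists were chosen with earlier results of these data known. Genes were named by rule: up to 12 largest changes per direction with no overlap and a mean of at least 8, up to 5 members per list with the smallest p (and up to 2 in the other direction), up to 10 largest differences per direction, and genes fixed by name, of which the text describes a selection; some are not reported here. Lists got no test. Promoters came from RefSeq windows of GRCm38.p6.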

Additional observations from a re-analysis of the deposited data

Results flagged for a closer look

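Single libraries standing apart from the other 3 of their group were looked for with Dixon's ratio at its 95% critical value. It was applied to each named gene and to some measures of the libraries. A library stood apart in 31 of 332 groups (9.34%), where chance gives about 1 in 20 for normally distributed values. The ratio was taken on linear values, several of them close to no read, for which that rate need not hold. At day 0, library 1 stood apart for Jun (43.8), Mki67 (43.4) and Galk1 (3.02), and library 2 for Fen1 (1.32), Asns (3.69), Fdps (97.3) and Pthlh (464). Library 3 of day 0 stood apart for Cdh15 (41.8), Psmd3 (24.2), Smyd5 (1.52), Thop1 (4.5), Atg101 (52.3) and Fgl2 (1.08), and had 14963 genes with a count. Library 4 of day 0 stood apart for Fosl1 (99.3), Mcm2 (6.8), Mthfd2 (10.1), mt-Nd5 (2060), Pfkp (363) and Tnc (19.7). At day 1, library 1 stood apart for Acta1 (36.7) and library 3 for Npm1 (1780) and Des (1585). Library 4 of day 1 stood apart for E2f4 (59.3), Cdkn1c (15.3), Ccnb2 (8.26), Mars (83.5), Lama4 (2.65), Cldn1 (1.74), Dcn (250) and Mfap5 (12).

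A second set of results differed between KO and WT by the interaction test, as the change in KO minus that in WT on the log2 scale. Stress, iron and turnover genes were positive: Hmox1 7.21, Hspa1a 4.81, Hspa1b 4.66, Cryab 3.12, Srxn1 3.07, Gdf15 2.95, Ftl1 2.17, Dnajb1 2.03, Sqstm1 1.69, Psme4 1.42, Hspa8 1.39, Hsp90ab1 1.22 and Fth1 0.615. Also positive were Cyp26a1 (6.79), Txnip (3.87), Tmtc2 (3.75), Cd320 (3.56), Neat1 (1.99), Plaur (1.97), Fgfr1 (1.7), Jun (1.24), Malat1 (1.12) and Ncl (0.883). Negative among named stem cell, early and cell cycle genes were Chodl -2.86, Calcr -1.7, Pax7 -1.59, Cd34 -1.54, Fosb -2.69, Fos -1.85, Egr1 -1.52, Irf1 -1.73 and Ccnd1 -1.46. Of the quiescence and surface markers, Fgl2 (3.3), Sdc4 (1.3) and Gpx3 (1.29) were positive. Also negative were Acta1 (-6.62), Cldn1 (-5.09), Ckm (-4.43), Gpx7 (-4.36), Smc2 (-4.33), Chrdl1 (-4.22) and Filip1l (-3.35).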

How the results depend on the processing

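The count of genes differing within KO stayed between 5570 and 6578 when 1 library was left out (3150 to 3732 higher, 2420 to 2855 lower), and was 7227 with the spread of all 24 libraries. The difference from WT was called for 1116 to 1754 genes without 1 library, 773 to 1145 positive and 343 to 643 negative, and DESeq2 called 928 negative. Deviations of same-numbered libraries of the 2 days from their group means had correlations of -0.004, -0.011, 0.041 and 0.040. Those of differently numbered libraries lay between -0.055 and 0.032. Such small correlations cannot decide whether the numbers pair the libraries. With the replicate number as a block, 6425 genes differed (3704 higher, 2721 lower), and 1535 differences passed (1017 positive, 518 negative). The lower Notch count was then 5, and Ccnd2 and Cdkn1a were no longer called, while Cryab gained a call (0.2686, adjusted p = 0.0252). Of 162 named genes, 151 were called, and 140 kept call and direction under every alternative run in which they were tested. Genes missing from a run, such as Cpt1b under a stricter filter, were not counted as lost there. Of 48 differences, 42 were called and 32 kept.

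The following values turned sign. The change of Spry1 was -0.1157, -0.1165 and -0.1143 with quantile normalization, edgeR and DESeq2, and -0.1134 to 0.4303 without 1 library. Mki67 was 0.1544 with library weights and -0.9085 to 0.7878 without 1 library, Myog -1.913 to 0.08711 and Acta1 -0.9004 to 0.2117. After quantile normalization Cryab was -0.1336 and mt-Atp6 0.6371. Ckm was 0.02236 with a pseudocount of 0.5, and -0.7279 to 0.465 without 1 library. The difference of Fth1 was -0.1073 and that of Malat1 -0.3015 after quantile normalization, and that of Lamp2 -0.3138 there, -0.02482 with DESeq2 and -0.04266 to 0.2224 without 1 library. After quantile normalization the lower count was 4 instead of 1 for ATF4 targets, 5 instead of 3 for chaperone-mediated autophagy, 4 instead of 2 for cytosolic chaperones and for mitosis, 5 instead of 2 for initiation factors, and 3 instead of 1 for glycolysis and for iron handling. DESeq2 gave 3 for ATF4 targets, 4 for cytosolic chaperones and 5 for mitosis. The causes were not tested.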

Other observations

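Gemin6, a subunit of the complex that assembles spliceosomal particles, and Alg3, a mannosyltransferase of protein glycosylation, were nearly silent at day 0. Gemin6 held 5 counts over the 4 libraries of day 0, had values of 0.0995, 0.107, 0.138 and 0.137 at day 0 and 48.3, 49.4, 42.8 and 47.9 at day 1, and changed by 5.42 ± 0.39 log2 units. Alg3 held 4 counts at day 0, had values of 0.0995, 0.0358, 0.138 and 0.137 at day 0 and 49.7, 59.9, 31.9 and 39.3 at day 1, and changed by 5.35 ± 0.42. With every day 0 value under 1, both genes passed the filter only through the day 1 libraries, which fixed their lack of overlap in advance. Both changes rest on the pseudocount of 1.

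On the other side, Olfr457, Olfr458 and Fam177a2 were among the largest falls, and their values rest on counts that near-identical copies could share. Fam177a2 went from 7.13, 88.9, 35.2 and 50.3 at day 0 to 0.0278, 0.024, 0.0261 and 0.0267 at day 1, which is 0 counts over the 4 libraries of day 1. Fam177a2 thus passed the filter only through day 0, which fixed its lack of overlap in advance. Olfr458 changed by -5.15 ± 0.52 and Olfr457 by -4.53 ± 0.52. The symbol Sept2 stands for more than 1 gene identifier in the table, and the entry with the larger fall (change -5.97 ± 0.53) is therefore uncertain.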
